A study of Mus musculus with 6 samples.

Results

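The genes described here were 40 genes of the interferon gamma response, of 45777 genes in the expression table. They were taken by name and fell into 14 GTPases, 14 genes of MHC class I antigen presentation, 6 genes of MHC class II antigen presentation and 6 regulators. They were chosen by their levels in these same 6 libraries, so that the high level in the library with doxorubicin alone is a description and not an independent finding. All 40 were in the table, and all averaged 10 counts or more per library, as did 18328 genes of the table, which are called all genes tested here. The member with the fewest counts was Socs1, with a mean of 28 counts, and no member fell short of the minimum.

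RNA of whole hearts was sequenced from female BALB/c nude mice (CAnN.Cg-Foxn1nu/Crl) aged 6 weeks, all of which carried a subcutaneous xenograft of MDA-MB-231 cells, a human breast cancer line. There were 6 conditions with 1 library each, and each library pooled 5 hearts. The Control mice got neither agent. Rh2-20 and Rh2-30 mice were injected daily with ginsenoside Rh2, a ginseng saponin, at 20 or 30 mg/kg in PBS with Tween 80 over 3 weeks. Dox mice got doxorubicin, an anthracycline cancer drug that damages the heart, at 2 mg/kg in saline every other day up to a cumulative 22 mg/kg. Rh2-20 + Dox and Rh2-30 + Dox mice got both. Nude mice lack a thymus and so most T cells, while B cells, natural killer (NK) cells and myeloid cells remain. The design asks how the heart's transcripts differ when Rh2 is given with Dox. As no condition had a second library, every ratio of 1 library to another stands without a replicate check and carries no p-value.

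Interferon gamma, made mainly by NK cells and T cells, binds the receptor Ifngr1 and Ifngr2 and acts through the kinases Jak1 and Jak2. Promoters of the genes it induces often hold gamma-activated sites (GAS) and interferon-stimulated response elements (ISRE), the latter bound by factors of the IRF family. Among the induced genes are the guanylate-binding proteins (Gbp) and the immunity-related GTPases (Irgm1, Irgm2, Igtp, Iigp1, Tgtp1, Tgtp2), which attack vacuoles that hold microbes. Others load peptides onto MHC class I, found on nearly all cells, and MHC class II, found mainly on macrophages, dendritic cells and B cells.

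The Dox library held the highest level of 37 of the 40 members, against 18.8% of all genes tested. The GTPases were the group in which it stood farthest above the other libraries. The sequences just upstream of these GTPase genes are shown first, since all 9 GTPases with a RefSeq promoter carried an ISRE. A GAS stood directly before the ISRE in the 4 members with the largest Dox to Control ratios. Cd274, a regulator whose ratio nearly equalled that of Irgm2, carried neither motif. The 4 are in the GRCm38.p6 (mm10) assembly at chr11:58199499-58199543 on the plus strand for Igtp, chr11:58214890-58214934 on the plus strand for Irgm2, chr11:48992302-48992346 on the minus strand for Tgtp1 and chr11:49064261-49064305 on the minus strand for Tgtp2. All lie upstream of the annotated transcript start, and capitals mark first the GAS and then the ISRE.
Igtp: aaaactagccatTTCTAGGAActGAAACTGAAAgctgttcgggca
Irgm2: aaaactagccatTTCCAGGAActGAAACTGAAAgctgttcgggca
Tgtp1: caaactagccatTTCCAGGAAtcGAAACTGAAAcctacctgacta
Tgtp2: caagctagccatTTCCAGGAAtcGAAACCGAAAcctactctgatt

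Igtp and Irgm2 were identical at 44 of these 45 bases, Tgtp1 and Tgtp2 at 37, and pairs across these at 32 to 34. An ISRE without a GAS 2 bases before it is shown for 2 Gbp genes with lower Dox to Control ratios. Gbp2 at chr3:142620584-142620628 and Gbp7 at chr3:142530263-142530307, both on the plus strand and upstream of the transcript start, carried the ISRE in the reverse direction, with the letters of its other strand in capitals.
Gbp2: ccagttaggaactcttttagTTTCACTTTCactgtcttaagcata
Gbp7: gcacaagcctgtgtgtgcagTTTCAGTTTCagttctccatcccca

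The promoters of 3 class II members carried no ISRE, and a reversed CCAAT box is in capitals here, an element known as the Y box of class II promoters. These are H2-Aa at chr17:34287861-34287921 on the minus strand, H2-Eb1 at chr17:34305758-34305818 on the plus strand and H2-DMb1 at chr17:34153080-34153140 on the plus strand, all upstream of the transcript start.
H2-Aa: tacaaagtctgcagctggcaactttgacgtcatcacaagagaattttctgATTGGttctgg
H2-Eb1: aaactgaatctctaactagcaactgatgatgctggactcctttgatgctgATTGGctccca
H2-DMb1: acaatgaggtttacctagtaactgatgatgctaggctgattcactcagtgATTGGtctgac

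RefSeq promoters (250 bases before to 50 after the start) were matched for 29 of the 40 members and searched on both strands. Those without an entry were Gbp4, Gbp6, Gbp8, Gbp9, Iigp1, Tap2, Tapbpl, H2-Ab1, Cd74, Nlrc5 and Ciita. The ISRE, searched as GAAA, any 2 bases and GAAA again, was in 9 of 9 GTPases, 3 of 12 class I genes, 0 of 4 class II genes and 1 of 4 regulators, against 3.99% of all 27025 genes with a promoter. The GAS, searched as TTCNNNGAA, was in 6 of 9 GTPases, 1 of 12 class I genes, 0 of 4 class II genes and 2 of 4 regulators, against 9.55% of all such genes. The pair with the spacing shown above, a GAS, any 2 bases and an ISRE, was in 5 genes, or 0.0185%. Those 5 were Igtp, Irgm2, Tgtp1, Tgtp2 and Gm12185, a predicted gene that is no member. This pair was searched after the matches had been seen, and it overlaps both other motifs. CCAAT was in 4 of 4 class II genes, 8 of 12 class I genes, 2 of 9 GTPases and 3 of 4 regulators, against 41.1% of all such genes. Cd274, with a Dox to Control log2 ratio of 2.12 beside 2.15 for Irgm2, carried none of these motifs. Iigp1 and Nlrc5, both at 2.05, had no promoter to search. Whether the motifs go with the size of the ratio was not tested. A match describes letters and does not show that a factor binds there.

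The 6 libraries held 86164411 to 90621002 counts each. Markers of cardiomyocytes stood at 85839 to 115070 summed CPM (counts of a gene per 1000000 counts of the library, after TMM normalization), with all 8 above 0 in every library, as in heart muscle. The Rh2-30 library stood apart in Nppa, an atrial peptide gene, at 594 CPM against 36.1 to 193 in the other 5. T cell markers were near 0, with Cd3d and Cd8b1 at 0 counts in every library. Levels are given in CPM unless FPKM, which also divides by transcript length, is named. Ratios are log2 with a prior count of 0.5, and their 95% intervals include the common dispersion of 0.0285, which was estimated from all 6 libraries as 1 group and adds about 0.67 to either side.

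The 14 GTPases were higher in the Dox library than in each of the other 5 libraries. Their summed level was 1214 CPM in Control, 889 in Rh2-20, 838 in Rh2-30, 964 in Rh2-20 + Dox, 857 in Rh2-30 + Dox and 3546 in Dox. The Dox library was thus 2.92 times Control, while the 4 libraries with Rh2, with or without Dox, were at 0.69 to 0.794 times Control. These sums rest largely on Gbp4 and Gbp9, at 372 and 293 of the 1214 CPM in Control. In Rh2-20 + Dox, Igtp, Irgm2, Tgtp1, Tgtp2 and Gbp6 were above Control and the other GTPases below it, with a median log2 ratio of -0.21. Of the 14, 10 were at least 2-fold higher in Dox than in Control, against 5.44% of all genes tested. Their median log2 ratio was 1.69, against -0.00 over all genes tested. The Dox library exceeded the next highest library at least 1.5-fold for 13 of the 14, against 1.4% of all genes, and at least 2-fold for 10, against 0.398%.

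**Figure D1:**
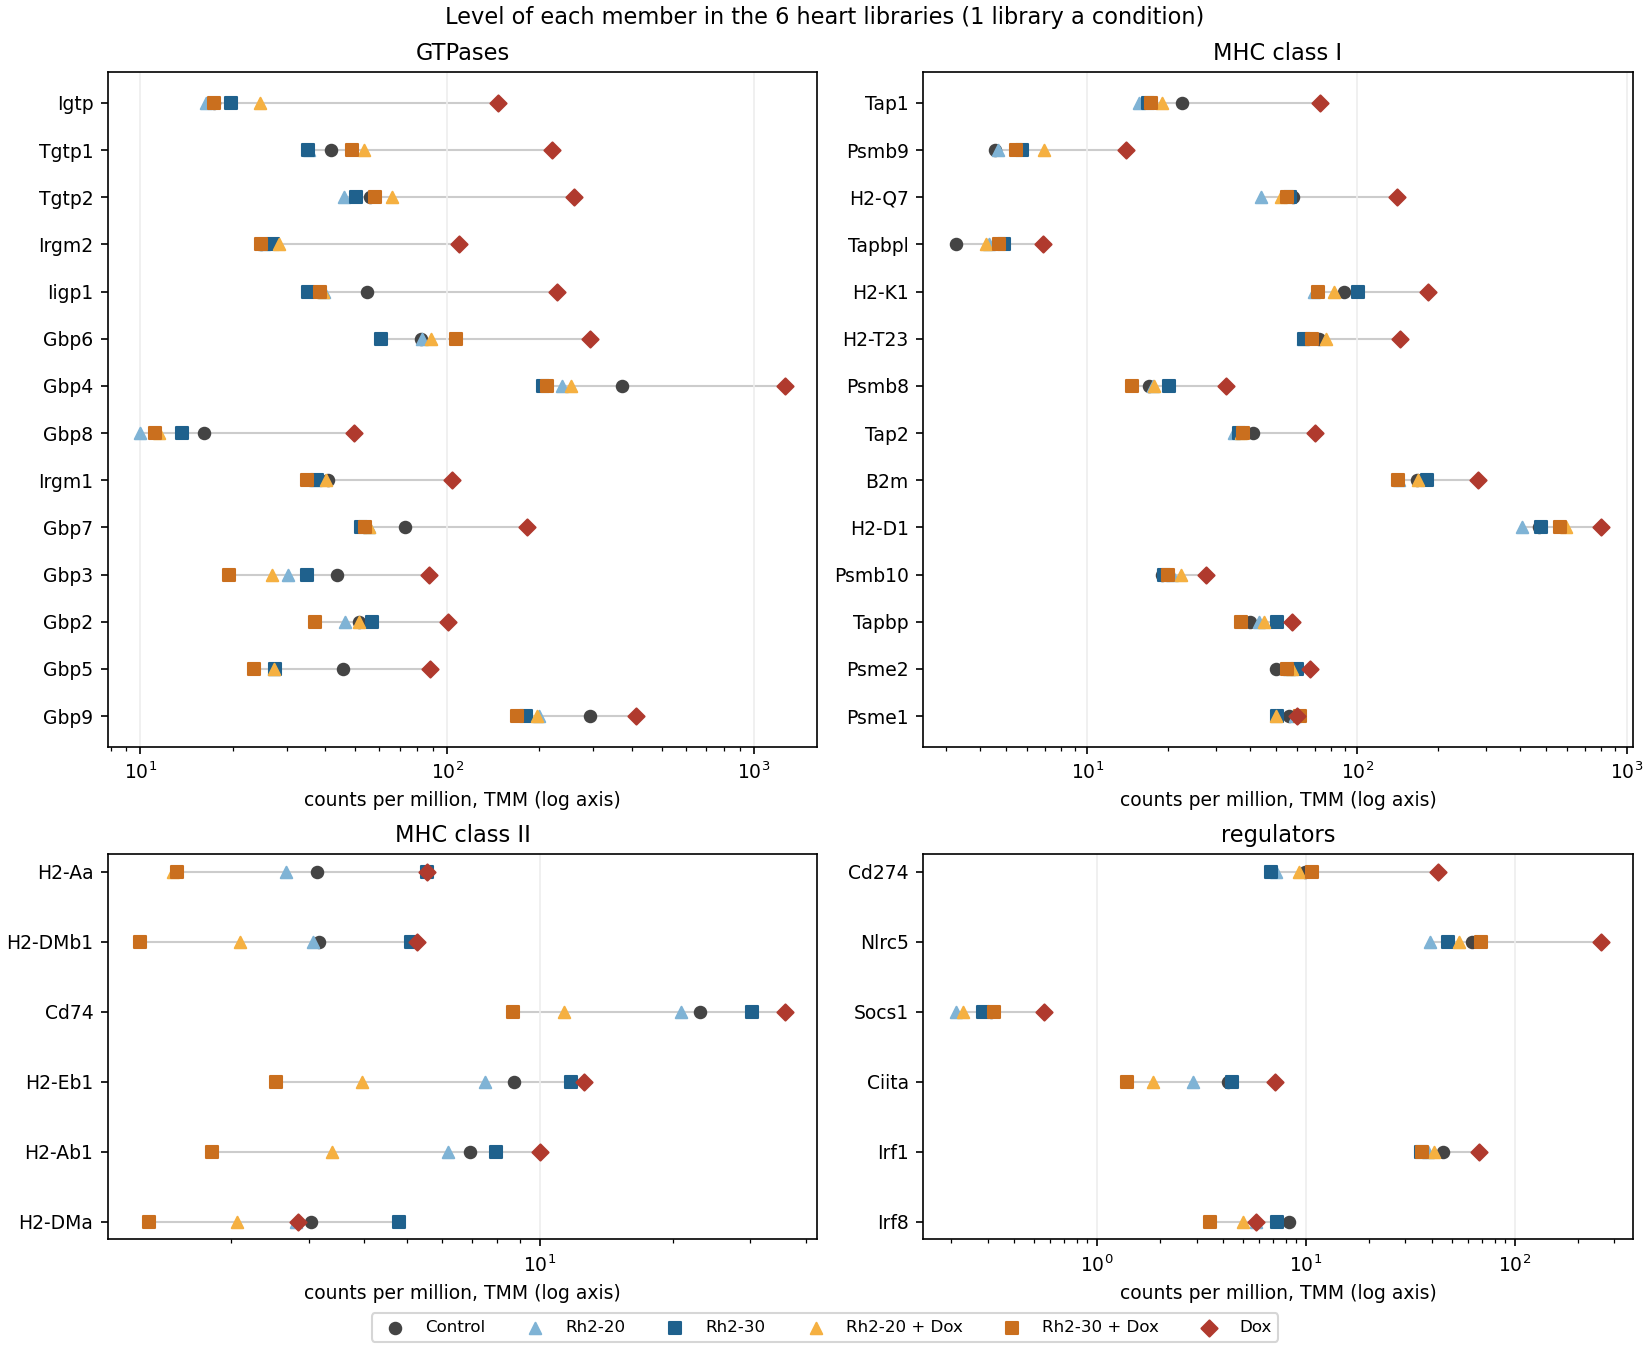
Level of each of the 40 members in CPM (x axis, log scale) in the 6 libraries, 1 library a condition, with a line from the lowest to the highest library and members ordered by their Dox to Control ratio in each group. The Dox library (diamonds) lies at the right end for 37 members, and H2-DMa, Irf8 and Psme1 are the exceptions.

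Igtp, an immunity-related GTPase of the endoplasmic reticulum that regulates the others of its family, had the largest ratio. It was measured at 17.4 CPM in Control, 16.4 in Rh2-20, 19.8 in Rh2-30, 24.5 in Rh2-20 + Dox, 17.3 in Rh2-30 + Dox and 147 in Dox. Only the Dox library was high, and the 5 others lay within 0.58 of each other on the log2 scale. The log2 ratio of Dox to Control was 3.08 (95% interval 2.40 to 3.76), that of Rh2-20 + Dox to Control 0.49 and that of Rh2-30 + Dox to Control -0.00.

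Irgm2, a second regulatory GTPase of this family, stood at 24.8 CPM in Control, 25.4 in Rh2-20, 27.0 in Rh2-30, 28.3 in Rh2-20 + Dox, 24.8 in Rh2-30 + Dox and 109.7 in Dox. Outside the Dox library its level was the steadiest of the GTPases, with the 5 libraries within 0.19 on the log2 scale. Irgm1, the third regulatory member, was 35.0 to 40.97 CPM in those 5 libraries and 104 in Dox, a log2 ratio of 1.34 (0.66 to 2.02).

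Tgtp1 and Tgtp2, effector GTPases that coat microbial vacuoles, are near-identical neighbours, so the split of reads between them is uncertain. Tgtp1 was at 41.7 CPM in Control, 35.5 in Rh2-20, 35.1 in Rh2-30, 53.7 in Rh2-20 + Dox, 49.1 in Rh2-30 + Dox and 220.2 in Dox. Tgtp2 was at 56.0 CPM in Control, 46.0 in Rh2-20, 50.4 in Rh2-30, 66.0 in Rh2-20 + Dox, 58.1 in Rh2-30 + Dox and 260.0 in Dox. In both genes the 3 libraries with Dox lay above the 3 without, but the Rh2 + Dox libraries were far nearer to Control than to Dox. The log2 ratios of Dox to Control were 2.40 (1.72 to 3.08) and 2.22 (1.54 to 2.89).

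Iigp1, another effector of the family, was at 54.9 CPM in Control, 39.6 in Rh2-20, 35.2 in Rh2-30, 39.4 in Rh2-20 + Dox, 38.5 in Rh2-30 + Dox and 228 in Dox. All 4 libraries with Rh2 were below both libraries without it. Its log2 ratio was 2.05 (1.37 to 2.73) for Dox and -0.47 to -0.64 for the 4 Rh2 libraries, all against Control.

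The Gbp genes code for large GTPases that assemble on microbial membranes, and their Dox to Control log2 ratios ran from 0.50 to 1.83. Gbp4 had the highest level per length of the GTPases, at a median of 41.4 FPKM. It was at 372 CPM in Control, 237 in Rh2-20, 206 in Rh2-30, 254 in Rh2-20 + Dox, 212 in Rh2-30 + Dox and 1265 in Dox. The Dox library was high and the 4 Rh2 libraries were below Control, with log2 ratios of 1.76 (1.09 to 2.44) for Dox and -0.55 to -0.85 for the Rh2 libraries.

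Gbp6 was at 82.2 CPM in Control, 83.1 in Rh2-20, 60.7 in Rh2-30, 88.5 in Rh2-20 + Dox, 107 in Rh2-30 + Dox and 292 in Dox. Here the 3 libraries with Dox lay above the 3 without. The log2 ratio to Control was 1.83 (1.15 to 2.51) in Dox and 0.38 in Rh2-30 + Dox, and Rh2-30 + Dox exceeded Rh2-30 by 0.81. Gbp8 and Gbp7 had Dox to Control ratios of 1.62 and 1.32, Gbp3, Gbp2 and Gbp5 of 0.99, 0.96 and 0.94.

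Gbp9 had the lowest ratio of the GTPases, 0.50, and its interval (-0.18 to 1.17) included 0. It was at 293 CPM in Control, 199.7 in Rh2-20, 181 in Rh2-30, 197 in Rh2-20 + Dox, 169.6 in Rh2-30 + Dox and 414 in Dox. The 4 libraries with Rh2 lay farther below Control than Dox lay above it, with log2 ratios of -0.55 to -0.79.

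Gbp3 was lower with Dox at both Rh2 doses. Its levels were 43.8 CPM in Control, 30.3 in Rh2-20, 34.8 in Rh2-30, 26.9 in Rh2-20 + Dox, 19.4 in Rh2-30 + Dox and 87.2 in Dox. Adding Dox went with a higher level without Rh2 and a lower one at both Rh2 doses, by -0.17 at 20 mg/kg and -0.84 at 30 mg/kg on the log2 scale. In Gbp9 the steps at both Rh2 doses were near 0, at -0.02 and -0.09. Gbp3 was also the only GTPase at least 2-fold lower than Control in any library, at -1.18 in Rh2-30 + Dox.

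Most of the GTPases have neighbours of their own family in the mm10 genome. Irgm1, Tgtp1 and Tgtp2 (chr11:48865245-49064212) had Dox to Control log2 ratios of 1.34 to 2.40, and Igtp and Irgm2 (chr11:58199556-58222783) of 2.15 to 3.08. Those of Gbp2, Gbp3, Gbp5 and Gbp7 (chr3:142496934-142638008) were 0.94 to 1.32, and those of Gbp4, Gbp6, Gbp8 and Gbp9 (chr5:105012513-105295871) were 0.50 to 1.83. Gbp genes of 1 cluster are similar in sequence, so reads can be split among them.

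All 14 class I genes had a higher point value in Dox than in Control, but the group was spread more evenly over the libraries than the GTPases. The median log2 ratio was 0.85, and 5 of the 14 were at least 2-fold higher, against 5.44% of all genes: Tap1, Psmb9, H2-Q7, Tapbpl and H2-K1. H2-T23 lay just under 2-fold, with a fold of 1.999. The summed level was 1111 CPM in Control, 982 in Rh2-20, 1145 in Rh2-30, 1232 in Rh2-20 + Dox, 1154 in Rh2-30 + Dox and 1952 in Dox. None of the 14 was at least 2-fold from Control in any other library.

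H2-D1 and B2m were the members with the highest level per length. H2-D1, a classical heavy chain, was at 202 FPKM in Control and 346 in Dox, and B2m, the light chain shared by all class I molecules, at 144 and 247. H2-D1 was at 472 CPM in Control, 407 in Rh2-20, 479 in Rh2-30, 593 in Rh2-20 + Dox, 564 in Rh2-30 + Dox and 797 in Dox. The 3 libraries with Dox were all above the 3 without, and the log2 ratio of Dox to Control was 0.75 (0.08 to 1.43).

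H2-K1, the other classical heavy chain named here, was at 89.2 CPM in Control, 69.3 in Rh2-20, 100.4 in Rh2-30, 81.8 in Rh2-20 + Dox, 71.8 in Rh2-30 + Dox and 183 in Dox. Both Rh2 + Dox libraries lay below Control, and the log2 ratio of Dox to Control was 1.03 (0.36 to 1.71). The non-classical H2-Q7 had a log2 ratio of 1.27, and H2-T23 was at 72.2 CPM in Control and 144 in Dox. BALB/c mice carry the d haplotype of the H2 complex and the reads were aligned to the b haplotype of C57BL/6, so the levels of the H2 genes and the split of reads among them are uncertain in all 6 libraries.

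Among the genes that load peptides, Tap1 stood out. It codes for a subunit of the transporter that brings peptides into the endoplasmic reticulum. Tap1 was at 22.4 CPM in Control, 15.5 in Rh2-20, 16.8 in Rh2-30, 18.9 in Rh2-20 + Dox, 17.3 in Rh2-30 + Dox and 72.7 in Dox. The Dox library alone was high and the 4 Rh2 libraries were below Control, with log2 ratios of 1.70 (1.02 to 2.38) in Dox and -0.25 to -0.53 with Rh2. Tap2, the partner subunit, had a log2 ratio of 0.76 (0.08 to 1.44). Tapbpl, a peptide editor, had 1.07 and Tapbp, or tapasin, which holds the class I chain at the transporter, 0.52.

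Inducible proteasome subunits, which replace constitutive ones and cut peptides that fit class I, were compared with the subunits they replace. The FPKM ratio of Psmb8 to Psmb5 was 1.04 in Control, 0.957 in Rh2-20, 1.17 in Rh2-30, 1.07 in Rh2-20 + Dox, 0.646 in Rh2-30 + Dox and 2.25 in Dox. That of Psmb9 to Psmb6 was 0.111 in Control, 0.1002 in Rh2-20, 0.135 in Rh2-30, 0.182 in Rh2-20 + Dox, 0.123 in Rh2-30 + Dox and 0.449 in Dox. That of Psmb10 to Psmb7 was 0.167 in Control, 0.149 in Rh2-20, 0.164 in Rh2-30, 0.175 in Rh2-20 + Dox, 0.121 in Rh2-30 + Dox and 0.249 in Dox. All 3 ratios were highest in the Dox library.

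The inducible subunits differed more than the constitutive ones. In Dox against Control the log2 ratios were 0.95 for Psmb8, 1.61 for Psmb9 and 0.53 for Psmb10, against -0.16 for Psmb5, -0.38 for Psmb6 and -0.04 for Psmb7. Of the 16 constitutive proteasome genes, 0 were at least 2-fold from Control in the Dox library, and the Dox library was the highest for 1. The activator subunits Psme1 and Psme2 hardly differed, with log2 ratios of 0.10 and 0.41 and intervals that included 0. Psme1 was highest in Rh2-30 + Dox, at 61.3 CPM against 60.1 in Dox.

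**Figure D2:**
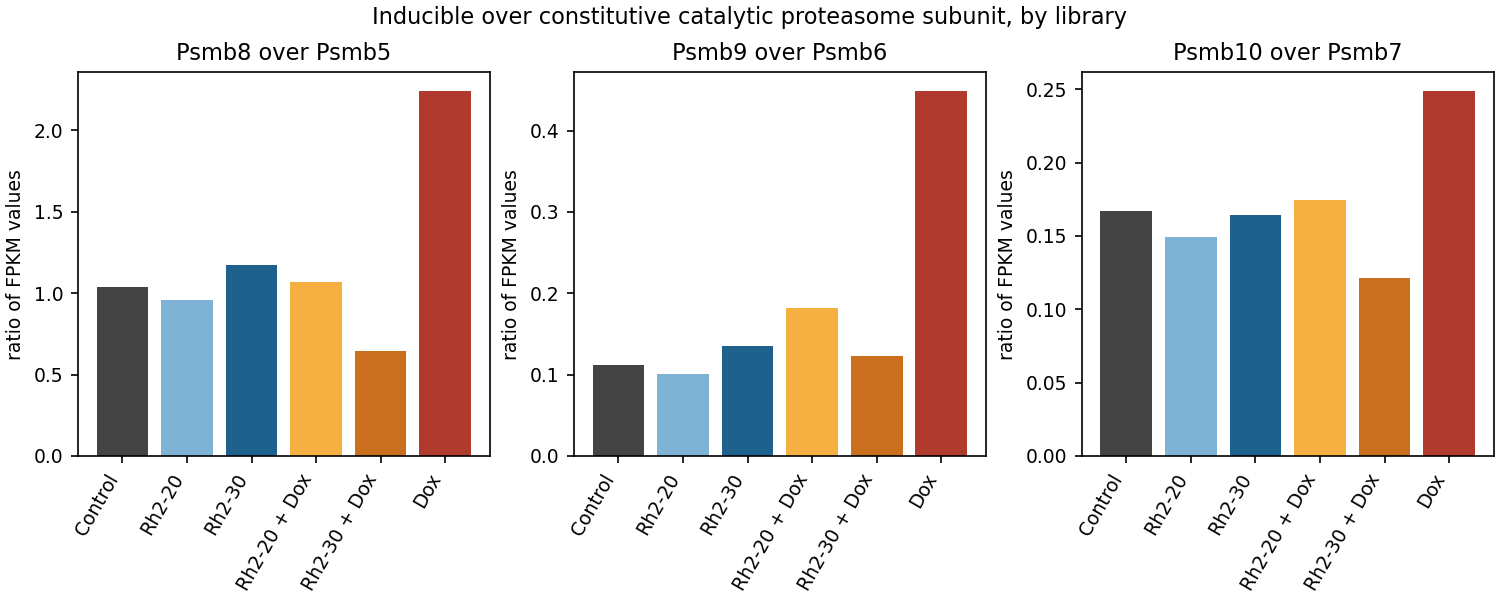
Ratio of FPKM values (y axis, from 0) of each inducible catalytic proteasome subunit to the constitutive subunit it replaces, 1 bar a library. The Dox bar is the highest in each panel, at 2.25 for Psmb8 over Psmb5, 0.449 for Psmb9 over Psmb6 and 0.249 for Psmb10 over Psmb7.

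The 6 class II genes followed another pattern. As a sum they were highest in Dox and in Rh2-30, and each of the 6 was lowest in 1 of the 2 Rh2 + Dox libraries. Their summed level was 48.1 CPM in Control, 43.1 in Rh2-20, 65.4 in Rh2-30, 24.3 in Rh2-20 + Dox, 17.1 in Rh2-30 + Dox and 72.2 in Dox. Against Control, 0 of the 6 were at least 2-fold higher in Dox, and the median log2 ratio was 0.58. In Rh2-20 + Dox 4 of the 6 were at least 2-fold lower than Control, against 3.62% of all genes tested, and in Rh2-30 + Dox all 6, against 6.85%. The median log2 ratios were -1.03 and -1.38, against 0.01 and -0.01 over all genes.

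H2-Ab1 codes for the beta chain of the I-A class II molecule. It was at 6.96 CPM in Control, 6.19 in Rh2-20, 7.95 in Rh2-30, 3.38 in Rh2-20 + Dox, 1.81 in Rh2-30 + Dox and 9.99 in Dox. The combined libraries were lowest, and the log2 ratio to Control was 0.52 (-0.17 to 1.21) in Dox, -1.04 in Rh2-20 + Dox and -1.94 in Rh2-30 + Dox.

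H2-Eb1, the beta chain of the I-E molecule, was at 8.74 CPM in Control, 7.51 in Rh2-20, 11.8 in Rh2-30, 3.95 in Rh2-20 + Dox, 2.52 in Rh2-30 + Dox and 12.6 in Dox. H2-Aa, the alpha chain of I-A, was at 3.12 CPM in Control, 2.65 in Rh2-20, 5.55 in Rh2-30, 1.47 in Rh2-20 + Dox, 1.51 in Rh2-30 + Dox and 5.56 in Dox. In both genes the Dox and Rh2-30 libraries were close to each other, 0.10 and 0.00 apart on the log2 scale. H2-Ea-ps, the entry in the reference for the alpha chain of I-E, which C57BL/6 mice carry as a non-functional copy, was no member and was also highest in Dox and low in the Rh2 + Dox libraries, with 873 counts in Control, 1228 in Dox, 463 in Rh2-20 + Dox and 338 in Rh2-30 + Dox.

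Cd74, the invariant chain that guides class II molecules to the compartment where peptides are loaded, was the most abundant of the 6 per length, at a median of 12.7 FPKM. It was at 23.1 CPM in Control, 20.9 in Rh2-20, 30.2 in Rh2-30, 11.3 in Rh2-20 + Dox, 8.68 in Rh2-30 + Dox and 35.9 in Dox. The log2 ratio to Control was 0.64 (-0.04 to 1.32) in Dox, -1.03 in Rh2-20 + Dox and -1.41 in Rh2-30 + Dox.

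H2-DMa and H2-DMb1 code for the chains of the editor that exchanges peptides on class II. H2-DMb1 was at 3.16 CPM in Control, 3.06 in Rh2-20, 5.09 in Rh2-30, 2.095 in Rh2-20 + Dox, 1.24 in Rh2-30 + Dox and 5.26 in Dox. H2-DMa was the member of this group whose highest library was Rh2-30, at 4.79 CPM, and its Dox to Control ratio was -0.10 (-0.82 to 0.62). Its lowest library was Rh2-30 + Dox, at 1.30 CPM.

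Set against the Rh2 library of the same dose, adding Dox went with lower class II levels. At 20 mg/kg the median log2 ratio was -0.86, and 0 of the 6 passed 2-fold. At 30 mg/kg the median was -1.95 and all 6 were at least 2-fold lower, against 12.1% of all genes tested. Without Rh2 the same step was 0.58. The Rh2-30 library also had the highest fibroblast marker sum, 1511 CPM against 834 in Rh2-30 + Dox. Its cardiomyocyte marker sum was the lowest, 85839 CPM against 115070 in Rh2-30 + Dox. The part of such differences between the 30 mg/kg libraries in the step was not tested.

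**Figure D3:**
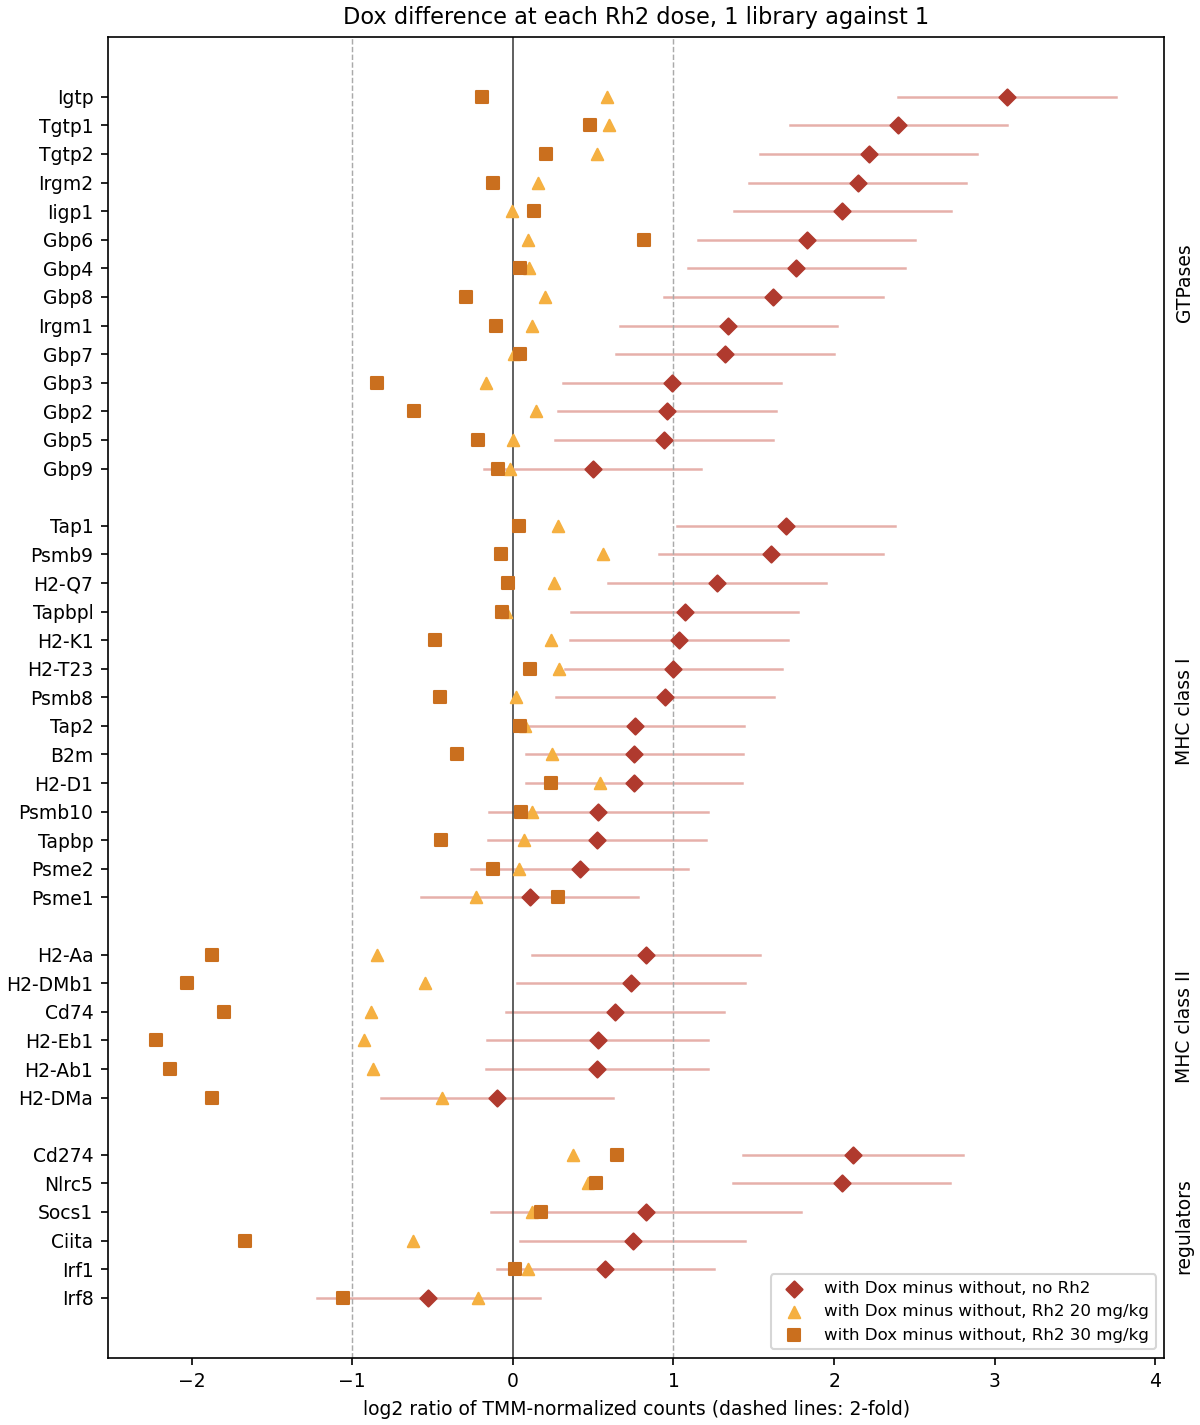
Log2 ratio of the library with Dox to the library without (x axis) for each member, without Rh2 (diamonds, with the 95% interval that includes the common dispersion), at Rh2 20 mg/kg (triangles) and at Rh2 30 mg/kg (squares), each 1 library against 1. For 38 of 40 members the diamond lies right of both other points, and the class II genes lie left of 0 at both Rh2 doses.

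Markers of the cells that usually carry class II moved with part of this pattern. The 10 macrophage markers summed to 381 CPM in Control, 502 in Rh2-20, 578 in Rh2-30, 469 in Rh2-20 + Dox, 321 in Rh2-30 + Dox and 336 in Dox, with none at 0. The 6 B cell markers summed to 3.07 CPM in Control, 3.45 in Rh2-20, 11.6 in Rh2-30, 2.84 in Rh2-20 + Dox, 1.52 in Rh2-30 + Dox and 3.02 in Dox, with none at 0. Both marker sums were highest in Rh2-30 and lowest in Rh2-30 + Dox. In Dox, where the class II sum was highest, neither marker sum was above Control, but single markers were. Mrc1 made up 169 of 381 CPM of the macrophage sum in Control and 124 of 336 in Dox. Mertk and Fcgr1 were instead highest in Dox, Mertk at 56.1 CPM against 37.6 in Control. C1qc and, barely, Cd68 were also above Control in Dox, and the other macrophage markers were below it. Of the B cell markers, Cd79a and Fcmr were above Control in Dox.

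In Rh2-30 + Dox against Rh2-30, 7 of the 10 macrophage markers and 6 of the 6 B cell markers were at least 2-fold lower, against 12.1% of all genes. In Rh2-20 + Dox against Rh2-20, 0 of the 10 and 0 of the 6 were, against 2.87%. The 8 dendritic cell markers summed to 29.6 to 45.6 CPM, with 1 at 0 in Control, Rh2-20 + Dox and Rh2-30 + Dox, and the 6 monocyte markers to 144 to 275 CPM. The class II sum per macrophage marker sum was 0.126 in Control, 0.0860 in Rh2-20, 0.113 in Rh2-30, 0.0518 in Rh2-20 + Dox, 0.0530 in Rh2-30 + Dox and 0.215 in Dox. Per macrophage and per monocyte markers, Dox was the highest library and both Rh2 + Dox libraries the lowest. The order per monocyte markers rests mostly on Vcan, at 176 of 224 CPM of the monocyte sum in Control and 128 of 204 in Dox. Like the fibroblast marker Col1a1, Vcan was highest in Rh2-30 and lowest in Rh2-30 + Dox, so that sum may not measure monocytes alone. Ly6c2, the next largest marker of that sum, was instead highest in Dox, at 64.4 CPM against 36.2 in Control and 36.8 in Rh2-30. Per dendritic cell markers the highest library was Rh2-30, at 2.16 against 1.92 in Dox, and the Rh2 + Dox libraries were again lowest, at 0.673 and 0.577. This order rests mostly on Zbtb46, at 22.4 of 30.3 CPM of the dendritic cell sum in Rh2-30, its lowest library, and 33.2 of 37.5 in Dox. Flt3, Clec9a, Cd209a, Ccr7 and Siglech were instead highest in Rh2-30, and Xcr1 and Itgax in Control. Per B cell markers the order differed, with 23.9 in Dox, 8.56 in Rh2-20 + Dox and 11.2 in Rh2-30 + Dox, and Rh2-30 was lowest, at 5.66. In RNA of a whole tissue, fewer cells of a type and less RNA per cell cannot be told apart, and the part of these cells in the class II result was not tested.

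**Figure D4:**
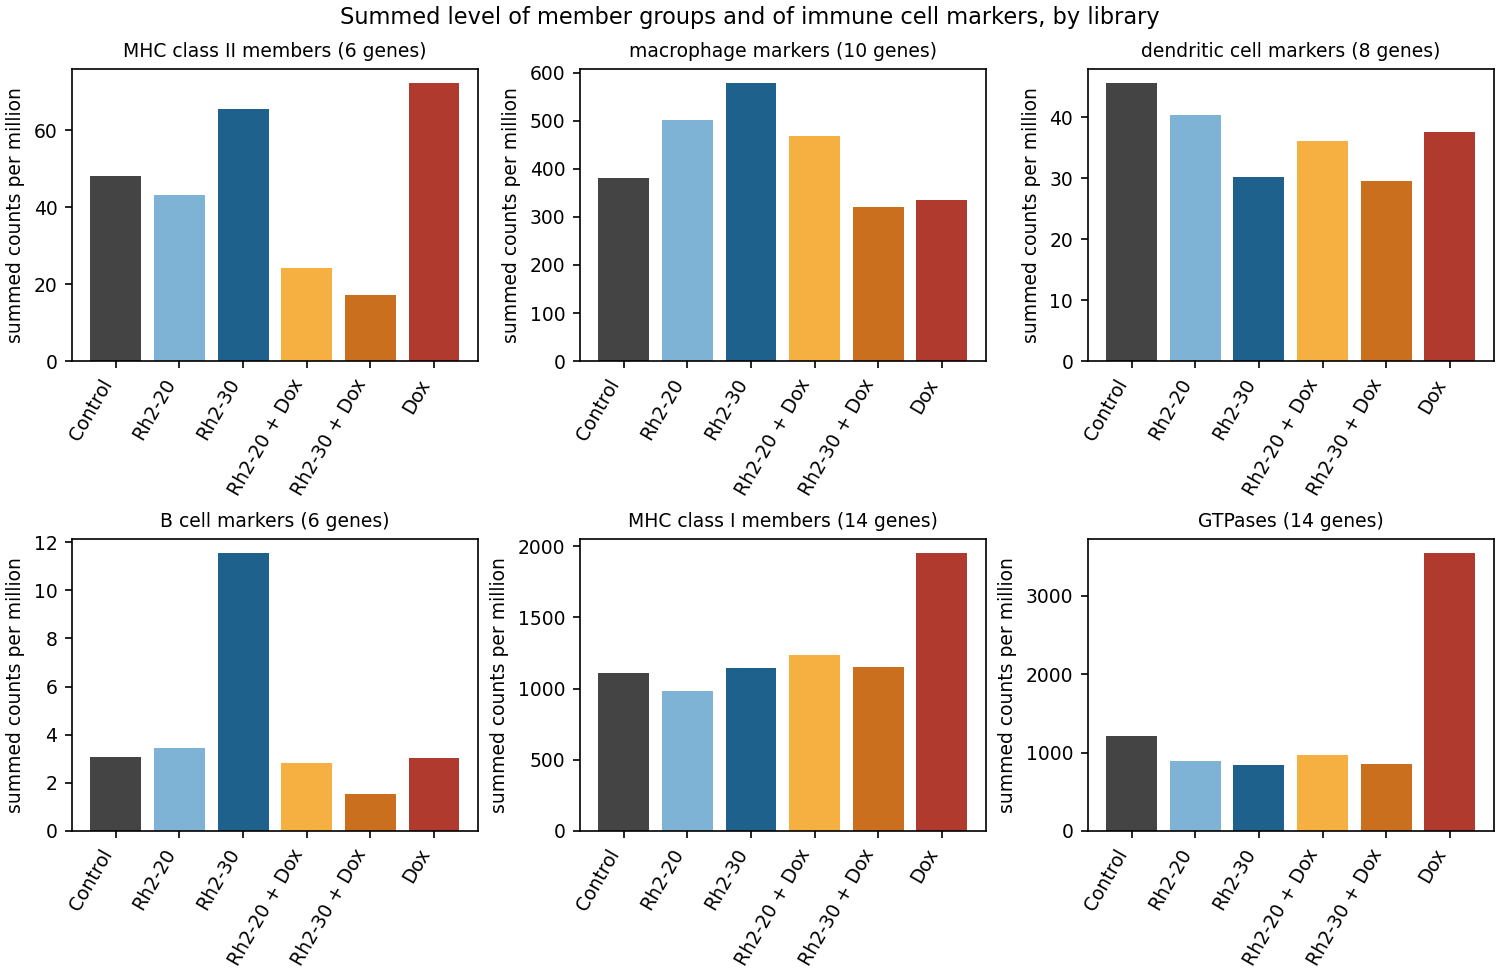
Summed CPM (y axes, from 0) of the class II, class I and GTPase members and of macrophage, dendritic cell and B cell markers, 1 bar a library. The GTPase and class I sums stand out in Dox alone, at 3546 and 1952 CPM, while the class II sum is lowest, at 24.3 and 17.1 CPM, in the Rh2 + Dox libraries.

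The 6 regulators did not share 1 pattern. At least 2-fold higher in Dox than in Control were Cd274 and Nlrc5. Nlrc5, which switches on class I genes, was at 62.2 CPM in Control, 39.2 in Rh2-20, 47.9 in Rh2-30, 54.3 in Rh2-20 + Dox, 68.6 in Rh2-30 + Dox and 257 in Dox. The Dox library alone was high, with a log2 ratio to Control of 2.05 (1.37 to 2.72). Ciita, its relative that switches on class II genes, was at 4.25 CPM in Control, 2.88 in Rh2-20, 4.43 in Rh2-30, 1.87 in Rh2-20 + Dox, 1.39 in Rh2-30 + Dox and 7.13 in Dox. Its order was that of the class II genes, with log2 ratios to Control of 0.75 (0.04 to 1.45) in Dox, -1.18 in Rh2-20 + Dox and -1.61 in Rh2-30 + Dox.

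Cd274, which codes for the checkpoint ligand PD-L1, was at 9.87 CPM in Control, 7.17 in Rh2-20, 6.83 in Rh2-30, 9.30 in Rh2-20 + Dox, 10.7 in Rh2-30 + Dox and 42.8 in Dox. Again the Dox library alone was high, with a log2 ratio of 2.12 (1.43 to 2.80). Irf1, a transcription factor that interferon gamma induces, was 35.6 to 45.5 CPM in the other 5 libraries and 67.8 in Dox, a log2 ratio of 0.58 (-0.10 to 1.25). Socs1, which blocks the receptor's kinases, had 19 to 28 counts in the other 5 libraries and 47 in Dox, too few for more than a broad interval (log2 ratio 0.83, -0.14 to 1.80).

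Irf8, a transcription factor of macrophages, dendritic cells and B cells, went against the other regulators. It was at 8.33 CPM in Control, 5.81 in Rh2-20, 7.26 in Rh2-30, 4.99 in Rh2-20 + Dox, 3.48 in Rh2-30 + Dox and 5.78 in Dox. The 3 libraries with Dox were all below the 3 without, though Dox and Rh2-20 nearly met. The log2 ratio to Control was -0.53 (-1.22 to 0.17) in Dox and -1.26 in Rh2-30 + Dox.

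Against Control, no member was 2-fold apart in a library with Rh2 alone, though the GTPase sums were 0.732 and 0.69 times Control in Rh2-20 and Rh2-30 and the class II sum was 1.36 times Control in Rh2-30. In Rh2-20, 0 of the 40 were at least 2-fold higher and 0 at least 2-fold lower, against 3.35% and 2.8% of all genes. In Rh2-30 the counts were also 0 and 0, against 8.48% and 1.63%. In Rh2-20 + Dox, 0 were higher, against 5.13%, and 5 lower, against 3.62%. In Rh2-30 + Dox, 0 were higher, against 4.08%, and 9 lower, against 6.85%. The 5 were H2-Aa, H2-Ab1, H2-Eb1, Cd74 and Ciita, and the 9 were the 6 class II genes, Ciita, Irf8 and Gbp3. In Dox, 17 members were higher, against 5.44% of all genes, and 0 lower, against 3.58%.

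Set against Dox, 26 of the 40 were at least 2-fold lower in Rh2-20 + Dox, against 3.44% of all genes, and 29 in Rh2-30 + Dox, against 7.35%. These included 13 and 14 of the 14 GTPases, 4 and 6 of the class I genes, 5 and 6 of the class II genes, and 4 and 3 of the regulators. The median log2 ratios of the GTPases were -1.84 and -2.15, those of class I -0.81 and -0.93, those of class II -1.61 and -2.06 and those of the regulators -1.60 and -1.41. These comparisons share the Dox library, and those with Control share the Control library. With Rh2 20 mg/kg in both libraries, adding Dox put 0 members at least 2-fold higher and 0 lower, against 4.09% and 2.87%. At 30 mg/kg it put 0 higher, against 2.4%, and 8 lower, against 12.1%, which were the 6 class II genes, Ciita and Irf8.

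Replicated tests could only be made by taking libraries of different conditions together. In the 3 libraries with Dox against the 3 without, the quasi-likelihood test of edgeR, adjusted after Benjamini and Hochberg, called 0 of the 40 members at an adjusted p under 0.05, against 0.0164% of all genes higher and 0.0109% lower. At an unadjusted p under 0.05 it found 7 higher (Igtp, Tgtp1, Tgtp2, Gbp6, H2-D1, Psmb9 and Cd274), against 4.2% of all genes, and Irf8 lower, against 5.91%. Of the members DESeq2's Wald test called H2-D1 alone, among 425 genes in all, with a log2 ratio of 0.53 and an adjusted p of 0.0326. The 3 libraries with Dox did not overlap the 3 without for Tgtp1, Tgtp2, Gbp6 and H2-D1, all higher, against 7.85% of all genes, and for Irf8, lower, against 9.16%. The number higher at an unadjusted p under 0.05 was 1 without Control, without Rh2-20 or without Rh2-30, 3 without Dox and 14 without Rh2-30 + Dox. The number lower was 9 without Dox, 2 without Rh2-20 and 0 without any other library.

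In the 4 libraries with Rh2 against the 2 without, edgeR's quasi-likelihood test again called 0 members after Benjamini-Hochberg adjustment. At an unadjusted p under 0.05, 23 were lower, against 3.68% of all genes, and 0 higher, against 3.51%, and the 23 held all 14 GTPases. The Dox library, in which the members were chosen to be high, is 1 of the 2 without Rh2. The counts of this comparison thus partly restate that choice. The lowest adjusted p was 0.503, for Gbp9, with a log2 ratio of -0.92. With Dox as a term in the quasi-likelihood fit, Gbp2 (unadjusted p = 0.075) and Irgm2 (0.052) were the GTPases no longer under 0.05. DESeq2's Wald test called 7 members, Gbp3, Gbp4, Gbp5, Gbp7, Gbp8, Gbp9 and Tap1, all lower, among 127 genes in all. For 12 members all 4 libraries with Rh2 lay below both without, against 9.08% of all genes: Gbp3, Gbp4, Gbp5, Gbp7, Gbp8, Gbp9, Irgm1, Iigp1, H2-Q7, Tap1, Tap2 and Irf1. Without the Dox library the number lower at an unadjusted p under 0.05 was 7, and without Rh2-20 it was 15. Without the Control library, the group without Rh2 was the Dox library alone, in which the members were chosen to be high, and the spread came from the libraries with Rh2 only. That fit called 10 members after adjustment, which restates the choice of members.

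Whether the step with Dox differed with and without Rh2 was tested as an interaction, with both Rh2 doses as 1 level, which leaves 2 residual degrees of freedom and rests on the single Control and Dox libraries. By edgeR's quasi-likelihood test 0 of the 40 passed after Benjamini-Hochberg adjustment, and the lowest adjusted p was 0.398, for Iigp1, Irgm2 and Tgtp1. At an unadjusted p under 0.05, 32 were lower with Rh2, against 1.82% of all genes, and 0 higher, against 0.895%. DESeq2's Wald test called 15, which were 11 GTPases, Tap1, Cd74, Cd274 and Nlrc5, of 38 genes it called in all. The log2 interaction was -2.87 for Igtp, whose step with Dox was 3.08 without Rh2 and 0.58 and -0.19 at 20 and 30 mg/kg. The tools thus differ in what they call, while the point value of the step was lower with Rh2 for all 15. The members were chosen by their levels in these libraries, the Dox library among them. These counts thus restate that choice and do not show independently that the step differs.

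Genes of the interferon gamma signal upstream of these members were described as well. Ifng itself had 0 counts in all 6 libraries. Captured RNA was sequenced, and 0 counts allow up to 3 only where the capture covers the gene. Whether it covers Ifng was not tested. The receptor genes Ifngr1 and Ifngr2 were lower in Dox than in Control, at log2 ratios of -0.28 and -0.43. Of the 8 genes of the signal that were tested, 0 were at least 2-fold higher in Dox.

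Among 16 further interferon gamma targets tested, 7 were at least 2-fold higher in Dox than in Control, against 5.44% of all genes, and the Dox library was the highest for 12, against 18.8%. Against Dox, 9 were at least 2-fold lower in Rh2-20 + Dox and 10 in Rh2-30 + Dox, against 3.44% and 7.35%. Cxcl9, a chemokine that draws T cells and NK cells, had few counts, 37 in Control, 26 in Rh2-20, 98 in Rh2-30, 11 in Rh2-20 + Dox, 13 in Rh2-30 + Dox and 61 in Dox. Its highest library was Rh2-30, and both Rh2 + Dox libraries were lowest. Of 15 further genes listed with class I, 1 was at least 2-fold higher in Dox, against 5.44% of all genes. It was H2-Q6, a close copy of H2-Q7 that was named after its values were seen, at a log2 ratio of 1.29. Some genes of this list code for no class I chain. Of these, H2-Ke6, Calr, Canx, Pdia3 and Rfx5 had ratios of -0.15 to -0.30, and Erap1 had 0.17. The median log2 ratio of the 15 in Dox against Control was 0.69, against -0.00 over all genes tested. Of 11 further genes listed with class II, 0 were at least 2-fold higher in Dox, against 5.44% of all genes. At least 2-fold lower than Control were 4 in Rh2-30 + Dox, against 6.85%, and 1 in Rh2-20 + Dox, against 3.62%. The 4, named after their values were seen, were H2-Ea-ps, H2-DMb2, Cd80 and Cd86, of which Cd80 and Cd86 are not class II genes themselves.

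Markers of the cells that make interferon gamma were scarce. The 8 NK cell markers summed to 0.624 CPM in Control and 2.94 in Dox, and to 0.788 to 1.82 in the 4 libraries with Rh2. In Control 4 of the 8 were at 0, and in Dox and Rh2-30 none. The 8 T cell markers summed to 1.46 to 3.69 CPM with 2 to 5 at 0. Cd3e, a chain of the T cell receptor complex that was named after its values were seen, had 80 counts in Control, 220 in Dox and 189 in Rh2-30 + Dox. Other T cell markers did not share this order. In the same libraries the counts were 25, 23 and 20 for Trac, 16, 12 and 9 for Cd4 and 25, 50 and 0 for Lck. They were 16, 5 and 0 for Cd3g and 9, 0 and 0 for Cd8a. The NK cell sum was highest in the library in which the GTPases were highest, but its markers did not all share this order. Gzma, Klrk1, Eomes, Nkg7 and Gzmb were highest in Dox, at 66, 43, 33, 30 and 27 counts, with Klrk1 at 44 counts in Rh2-30. Ncr1 was instead highest in Rh2-20 + Dox, at 41 counts against 28 in Dox, Klrb1c in Rh2-30 and Prf1 in Control. The part of NK and T cells in the result was not tested.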

How the data were processed

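The authors sequenced captured RNA of pooled hearts (SureSelectXT RNA Direct kit, 101-base reads) and deposited 1 table of the series with counts per gene, FPKM and TPM for each library. The submitters' processing notes name bcl2fastq 2.20.0, Trimmomatic, HISAT2 2.1.0, StringTie 2.1.3b and the mm10 build. Deposited counts were used as given, the FPKM values deposited by the authors served for levels per length and as an alternative, and the TPM values deposited by the authors were not used. The reference is of C57BL/6 mice, and reads of near-identical genes can be split wrongly.

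The 40 members and all lists were chosen with earlier results of these data known. The values that chose them were their levels across these 6 libraries, so no test here is independent evidence of their pattern. Named were all members, and of the other pathway genes those at least 2-fold from Control in 3 of 5 libraries, with Psmb5, Psmb6, Psmb7, Ifng, Ifngr1, Ifngr2 and H2-Ea-ps always. A further gene of that rule is not reported here. H2-Ea was not analysed here.

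Genes that averaged 10 or more counts were normalised by TMM and tested with edgeR 4.0.16 (R 4.3.3, limma 3.58.1), by the quasi-likelihood test with Benjamini-Hochberg adjustment over 18328 genes. DESeq2 1.42.0 was an alternative, as were its size factors, no filter, another prior count, FPKM, another covariate and leaving out each library. In the tests across conditions, libraries of different treatments stood as replicates, so their spread includes treatment differences. Whether the hearts of a pool varied could not be measured. Libraries held 86164411 to 90621002 counts, and a gene at 0 counts could have up to 3 if the capture covered it. Counting intervals (95%) cover counting error only, as reads carried no molecular identifiers, and the intervals printed add the common dispersion, which includes treatment differences. The fits were tested on simulated data. Promoter sequences are from RefSeq (GRCm38.p6).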

Additional observations from a re-analysis of the deposited data

Results flagged for a closer look

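In 7 members and in the class II median, the Dox library lay above Control while both Rh2 + Dox libraries lay below the Rh2 library of the same dose, each by more than counting error in the members. Gbp9 and Tapbpl had the same signs, but their step at Rh2 20 mg/kg was within counting error. Counting error does not cover variation among hearts. The log2 steps with Dox, given first without Rh2, then at Rh2 20 mg/kg and then at 30 mg/kg, were 0.99, -0.17 and -0.84 for Gbp3. They were 0.83, -0.85 and -1.88 for H2-Aa, and 0.52, -0.87 and -2.13 for H2-Ab1. H2-Eb1 had 0.53, -0.93 and -2.22, and H2-DMb1 had 0.74, -0.55 and -2.03. Cd74 had 0.64, -0.88 and -1.80, and Ciita had 0.75, -0.62 and -1.67. For the class II median the steps were 0.58, -0.86 and -1.95. Each step is 1 library against 1. With the common dispersion added, the 95% intervals include 0 for the step without Rh2 of H2-Ab1, H2-Eb1 and Cd74 and for the step at Rh2 20 mg/kg of Gbp3, H2-DMb1 and Ciita. As an interaction, the difference for each of the 7 genes had an adjusted p of 0.988 by edgeR's quasi-likelihood test, while DESeq2's Wald test gave adjusted p = 0.0305 for Gbp3 and 0.00774 for Cd74 and called none of the other 5. The difference for the median was not tested. Macrophage and B cell markers were also lower in Rh2-30 + Dox than in Rh2-30, and their part in these values was not tested.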

How the results depend on the processing

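Each condition had 1 library, so libraries could be paired only by Rh2 dose. The fit with Rh2 dose as a term, which sets each library with Dox against that without Dox at the same Rh2 dose, called 0 members after adjustment. No value past its threshold changed direction under the alternatives run. All 94 member ratios past 2-fold kept their direction, and 94 stayed past 2-fold with DESeq2's size factors, 94 with a prior count of 2, 74 with FPKM plus 1 and 86 with FPKM plus 0.1. With FPKM plus 1, members at least 2-fold lower numbered 0 in Rh2-20 + Dox and 4 in Rh2-30 + Dox against Control, and 5 in Rh2-30 + Dox against Rh2-30. With FPKM plus 0.1 the number in Rh2-20 + Dox against Control was 2. With FPKM plus 1 the class II medians were -0.66 and -0.96 for Rh2-20 + Dox and Rh2-30 + Dox against Control, -1.21 and -1.46 against Dox and -1.48 for Rh2-30 + Dox against Rh2-30, and those of the regulators against Dox were -0.68 and -0.86. A pseudocount of 1 is large beside the FPKM of class II genes, and a ratio of low genes shrinks by construction.

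In the libraries with Dox against those without, members at an unadjusted p under 0.05 were 2 lower without a filter on counts, 4 higher with Rh2 dose as a term, and 4 higher and 2 lower by DESeq2's Wald test, which called 1 after adjustment. For Rh2 and for the interaction the Wald test called 7 and 15 after adjustment, where edgeR's quasi-likelihood test called 0, and the cause was not tested. Leaving out 1 library at a time, the Dox test called 0 members after adjustment, with 1 to 14 higher and 0 to 9 lower at an unadjusted p under 0.05. The Rh2 test called 0 to 10 after adjustment, with 0 higher and 7 to 28 lower unadjusted. The interaction, left out in turn only for the 4 libraries with Rh2 and chosen after seeing the data, called 0, with 0 higher and 29 to 32 lower unadjusted. Counting error widened the interval most for Socs1, the member with the fewest counts.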

Other observations

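Gm12185, the predicted gene outside the 40 whose promoter held the same GAS and ISRE pair as Igtp, Irgm2, Tgtp1 and Tgtp2, was counted 820 times in Control and 1398 times in Dox (log2 ratio 0.76). Its log2 ratios to Control were -0.50 in Rh2-20, -0.81 in Rh2-30, -0.83 in Rh2-20 + Dox and -1.20 in Rh2-30 + Dox. It was named after the matches had been seen.

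Constitutive proteasome genes were arranged the other way round in rank, though their differences were small. In 13 of 16 all 4 libraries with Rh2 lay above both libraries without it, against 9.87% of all genes tested, and Rh2-30 + Dox was the highest library for 12 of the 16, against 20.2%. Against Control, their median log2 ratio in Dox was -0.04. These counts were picked out after the values had been seen.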
